A study of Homo sapiens with 17 samples.

Results

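The transcripts of 10 ligands that natural killer (NK) cells use to recognise a target cell were followed in senescent and growing human fibroblasts. The ligands were MICA, MICB, ULBP1, ULBP2 and ULBP3, which bind the activating receptor NKG2D, PVR and NECTIN2, which bind DNAM-1, NCR3LG1, which binds NKp30, and the adhesion molecules ICAM1 and CD58. They were chosen by name, as known ligands, from the 62754 genes of the deposited tables, with earlier results of these data known. All 10 had enough counts to be tested, among 19473 genes tested in all, and 1 gene identifier carried each symbol.

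The cells were IMR90 ER:RAS, lung fibroblasts of an established human strain that carry an oncogenic RAS fused to an oestrogen receptor domain. 4-hydroxytamoxifen (4OHT) switches the fusion on and sends the cells into senescence, whereas DMSO is its solvent control. A day before treatment the cells were transfected with siRNA that targets SMARCA4 (siSMARCA4) or with the non-targeting siNT, and RNA was taken on day 7. SMARCA4 (BRG1) is a motor subunit of SWI/SNF complexes, which move nucleosomes. Of the 17 libraries, 5 were of DMSO siNT and 6 each of 4OHT siNT and of 4OHT siSMARCA4, every group carried ER:RAS, and DMSO was not combined with siSMARCA4. Each library name held a number, 2 or 4, directly after the name of the siRNA, and ended in V or VM. The paper tested 2 independent siRNAs against SMARCA4, but the labels do not state that the numbers are different siRNAs. They also do not say what V and VM stand for. The 4OHT siNT group held VM libraries throughout, while 3 of 6 libraries of 4OHT siSMARCA4 and 3 of 5 of DMSO siNT were VM. Nothing in the labels says that the libraries came from separate cultures, so that p-values measure the spread between these libraries, which may be technical.

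NK cells weigh activating against inhibitory signals that they read from the surface of another cell. NKG2D is an activating receptor whose ligands are relatives of MHC class I that many healthy cells carry at low levels and that stress, DNA damage and oncogenic signalling can raise. DNAM-1 (CD226) reads PVR and NECTIN2, which belong to the nectin family and also bind the inhibitory receptor TIGIT. ICAM1 and CD58 are held by the integrin LFA-1 and by CD2, and so fasten the killer cell to its target. Senescent fibroblasts are known targets of NK cells, and all values here are of RNA in the target cells, not of protein at their surface.

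The regions before the transcription start of the ligand genes were read from RefSeq (GRCh38.p14) for all 10 members, to show which known motifs lie close to the genes that the results turn on. The last 250 bases before each RefSeq start were searched on both strands. Windows of 30 bases, all on the plus strand, are given for MICA and MICB, which went in opposite directions, for ICAM1, which rose most, and for NECTIN2, which fell on knockdown. Capitals mark the motif: the core GAANNTTC of the heat shock element in the first pair, an NF-kB motif of the form GGAANNTCC in ICAM1, and GC boxes (GGGCGG) in NECTIN2.
MICA: ccagcccactgGAATTTTCtcttccaagcg
MICB: ccaggccgctaGAATTTTCtcttctgaacg
ICAM1: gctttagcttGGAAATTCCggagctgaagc
NECTIN2: GGGCGGggtcagaacgccaggaggGGGCGG
They lie at chr6:31403449-31403478 (MICA), chr6:31497995-31498024 (MICB), chr19:10270924-10270953 (ICAM1) and chr19:44846219-44846248 (NECTIN2). The MICA and NECTIN2 windows lie inside exons of other annotated transcripts of these genes, and those of MICB and ICAM1 lie outside annotated exons.

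The MICA and MICB windows were identical at 24 of 30 bases, motif included. The heat shock core stood in 2 of the 10 ligand promoters, MICA and MICB, and in 5.78% of 35116 RefSeq promoters of the same length. The NF-kB form of ICAM1, a pattern that these bases match on either strand, stood in 1 of 10 and in 3.84% of all, and the form GGGANNTCC stood in NCR3LG1 alone among the 10 and in 4.04% of all. GC boxes were in 9 of 10, all but PVR, and in 42.6% of all promoters. The E2F form TTTCCCGC was found in ULBP2 only (1.39% of all), while TTTGGCGC (0.550% of all), the AP-1 motif TGANTCA (6.57%) and the CRE motif TGACGTCA (1.65%) were in 0 of the 10. These are matches of letters and were not set against any measure of binding.

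Library totals were 53.0 ± 4.99 M counts (SD, n = 5) in DMSO siNT, 51.6 ± 7.30 M (n = 6) in 4OHT siNT and 54.5 ± 7.31 M (n = 6) in 4OHT siSMARCA4. SMARCA4 itself was at 252.6 to 286 counts per 1e6 counts (CPM) in 4OHT siNT and at 68.4 to 126.6 CPM in 4OHT siSMARCA4, so that 32.9% was left (edgeR adjusted p 5.13e-07) and the libraries matched their labels. All 9 fibroblast markers were present in each group. Their summed level was 17281 to 22035 CPM in DMSO siNT, 8152 to 11153 in 4OHT siNT and 2009 to 4645 in 4OHT siSMARCA4, and all 9 were called lower in both steps. The 12 NK and T cell markers summed to at most 0.750 CPM in any library, with KLRK1, the gene of NKG2D, at 0 throughout. The 8 leukocyte and myeloid markers summed to 20.1 to 30.5 CPM, of which nearly all was CD68, a lysosomal gene that fibroblasts also use. The 5 epithelial markers fell from 31.0 to 47.3 CPM in DMSO siNT to 1.14 to 2.64 in 4OHT siNT and 0.543 to 1.11 in 4OHT siSMARCA4, through KRT19, and the 5 endothelial ones were at 1.11 to 2.06, 5.09 to 6.85 and 2.92 to 5.62 CPM. The part of these shifts in the ligand values was not tested, and in RNA from whole cultures fewer cells of a type and less RNA per cell cannot be told apart.

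Levels of different genes were compared as CPM per kb of merged exons. In DMSO siNT cells NECTIN2 stood highest at 43.8 ± 2.98 (SD, n = 5), followed by MICA at 25.5 ± 6.53 and PVR at 14.0. Next came ULBP2 at 8.07, MICB at 6.88, ICAM1 at 5.43 ± 3.67 and ULBP3 at 5.36, neighbours whose library ranges overlapped pair by pair. CD58 at 1.88 and ULBP1 at 1.74 overlapped too, and NCR3LG1 was lowest at 0.599. The growing fibroblasts thus already held RNA of all 10 ligands.

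In 4OHT siNT cells the order began with ICAM1 at 159.9 ± 44.4 CPM per kb (SD, n = 6), ahead of NECTIN2 at 43.6 and MICA at 34.3, whose ranges overlapped. PVR was at 22.6 and ULBP2 at 12.9. ULBP3 at 6.33, ULBP1 at 4.97 and MICB at 4.11 formed a run in which each overlapped the next, and CD58 at 3.04 and NCR3LG1 at 0.789 closed the order. ULBP1, far below MICB in DMSO siNT, stood beside it here.

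With siSMARCA4 the first 6 places were the same: ICAM1 at 168 ± 66.6 CPM per kb (SD, n = 6), NECTIN2 at 35.4, MICA at 31.2, PVR at 21.7, ULBP2 at 11.8 and ULBP3 at 5.43. MICB at 4.15, ULBP1 at 4.07, CD58 at 2.83 and NCR3LG1 at 0.766 followed. NECTIN2 overlapped MICA, and from ULBP3 to CD58 each ligand overlapped the next. Taking the longest annotated transcript as the length put MICA above NECTIN2 in this group and changed no other place, and made the ranges of MICB and CD58 overlap in 4OHT siNT. It raised the levels per length themselves, by 1.70-fold for MICA and 1.61-fold for PVR, by at most 1.39-fold for the others, and not at all for ULBP1, ULBP2, ULBP3 and NCR3LG1.

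**Figure D1:**
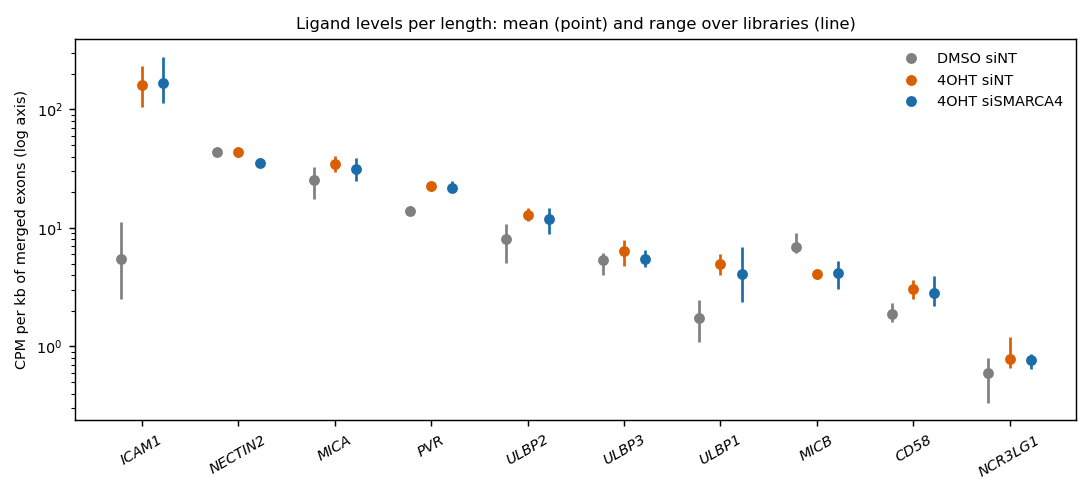
Levels of the 10 ligand transcripts in CPM per kb of merged exons (log axis), with genes ordered by their mean in 4OHT siNT. Points are group means and lines run from the lowest to the highest library; ICAM1 goes from 5.43 in DMSO siNT to 159.9 in 4OHT siNT, while NECTIN2 has 43.8 and 43.6.

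Summed over the 5 NKG2D ligands, the level per length was 47.6 ± 9.67 CPM per kb in DMSO siNT (SD, n = 5), 62.5 ± 7.64 in 4OHT siNT (n = 6) and 56.7 ± 4.01 in 4OHT siSMARCA4 (n = 6). The libraries of the groups overlapped, with ranges of 36.4 to 60.1, 55.2 to 72.1 and 53.7 to 64.5. MICA made up 53.2% of the sum in DMSO siNT, 54.7% in 4OHT siNT and 54.9% in 4OHT siSMARCA4. The share of MICB was 14.6%, 6.63% and 7.29% in the same order, that of ULBP1 was 3.79%, 7.92% and 7.26%, that of ULBP2 was 16.6%, 20.7% and 20.9%, and that of ULBP3 was 11.7%, 10.02% and 9.62%. With the longest transcript as the length the share of MICA was 64.8%, 66.8% and 66.7%, and the sums were 66.6, 87.3 and 79.3 CPM per kb. With either length MICA held most of the NKG2D ligand RNA in each group, and in both 4OHT groups the mean share of MICB was smaller and that of ULBP1 larger than in DMSO siNT.

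The comparison of 4OHT siNT with DMSO siNT asked what senescence did to the ligands. By edgeR's quasi-likelihood test over all genes, with a call at an adjusted p under 0.05, 6 of the 10 ligands were higher and 1 was lower. ICAM1, ULBP1, PVR, CD58, ULBP2 and MICA rose, MICB fell, and NCR3LG1, ULBP3 and NECTIN2 did not pass. Among all 19473 genes 27.0% were called higher, 27.4% lower and 54.4% in either direction. The libraries of the groups did not overlap for 6 ligands, 5 higher and 1 lower, against 39.6% of all genes. The median log2 fold change was 0.55 for the ligands and 0.0039 for all genes. Because the ligands were chosen with earlier results of these data known, the list was not tested as a set.

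**Figure D2:**
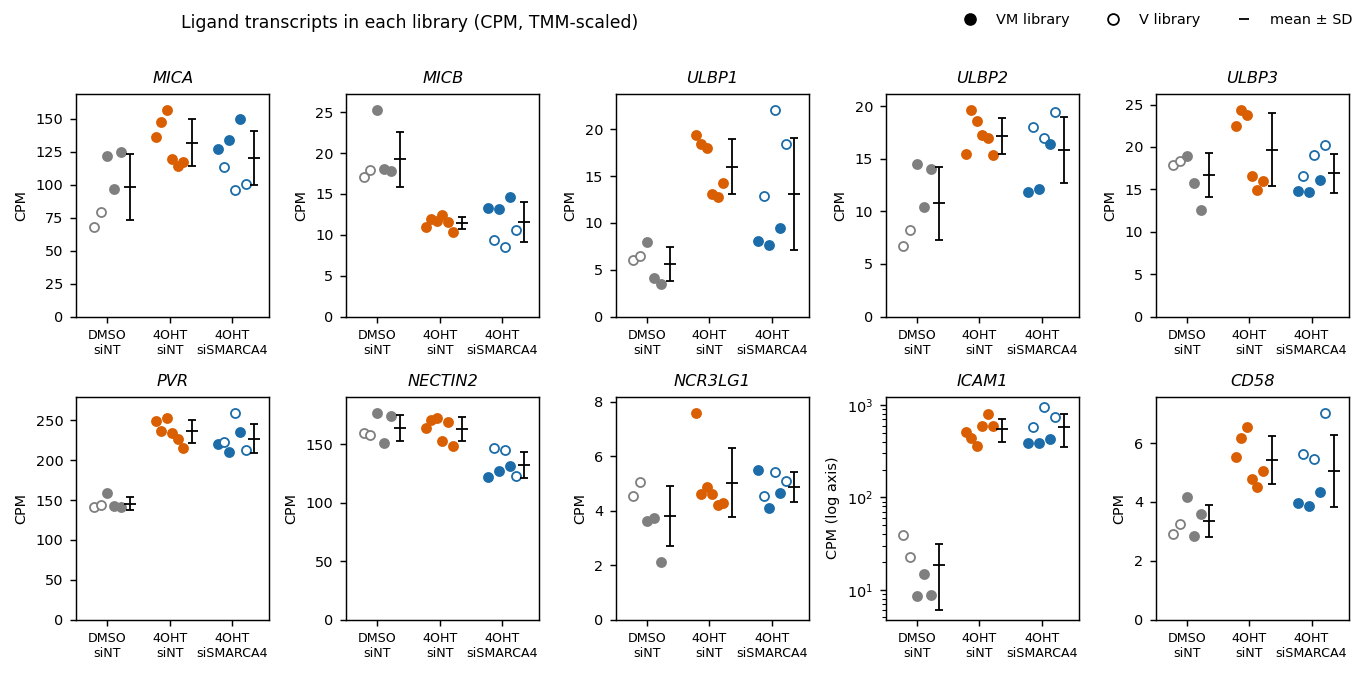
CPM of each ligand in each of the 17 libraries, after scaling by TMM, with VM libraries filled and V libraries open, and the group mean ± SD beside the points. The ICAM1 axis is logarithmic and the others start at 0; ICAM1, ULBP1, PVR, CD58 and ULBP2 lie higher in every 4OHT siNT library than in any DMSO siNT library, and MICB lies lower.

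Among the NKG2D ligands, ULBP1 (ENSG00000111981; GRCh38 chr6:149963943-149973715), which like ULBP2 and ULBP3 belongs to the family of UL16 binding proteins, was at 6.06, 6.43, 7.91, 4.13 and 3.47 CPM in the 5 DMSO siNT libraries. In 4OHT siNT its lowest, median and highest libraries were at 12.8, 16.1 and 19.4 CPM. No 4OHT siNT library reached down to a DMSO siNT library, and the rise was 2.85-fold (log2 1.51, SE 0.27, edgeR adjusted p 0.00012).

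ULBP2 (ENSG00000131015; chr6:149942014-149949235) was at 6.69, 8.20, 14.5, 10.4 and 14.1 CPM in DMSO siNT and had a lowest, median and highest of 15.3, 17.1 and 19.6 CPM in 4OHT siNT. The groups stood apart by a small gap, and the rise was 1.59-fold (log2 0.67, SE 0.18, edgeR adjusted p 0.00377). The DMSO siNT values of 6.69 and 8.20 CPM are of V libraries, and within VM libraries the rise was 0.38 on the log2 scale (edgeR adjusted p 0.0316). In number 4 libraries alone, where 4 ligands and 43.0% of all genes were called, it was at 0.38 on the log2 scale and did not pass (edgeR adjusted p 0.0722). Of the windows of 110 bases in its transcripts, 9.71% also occur in RAET1L or RAET1G, relatives in the same cluster, so that its counts rest in part on how read pairs were shared.

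ULBP3 (ENSG00000131019; chr6:150061053-150069121, minus strand) was at 12.6 to 18.9 CPM in DMSO siNT, and at 14.97, 19.5 and 24.3 CPM as lowest, median and highest in 4OHT siNT. The groups overlapped and the difference did not pass (log2 0.24, 95% interval -0.06 to 0.54, edgeR adjusted p 0.172), though it did in number 2 libraries alone (0.32, edgeR adjusted p 0.00451). Of its windows, 3.50% are shared with other genes.

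MICA (ENSG00000204520; chr6:31399784-31415315), the most abundant NKG2D ligand here and a gene of the MHC region, was at 68.0, 79.6, 122, 97.1 and 125 CPM in DMSO siNT. Its lowest, median and highest 4OHT siNT libraries were at 114, 128 and 157 CPM. The groups overlapped, because 2 of the 5 DMSO siNT libraries lay above the lowest 4OHT siNT library. MICA was called at 1.34-fold (log2 0.42, SE 0.15, edgeR adjusted p 0.0253), but not when any of 4 libraries was left out in turn (adjusted p 0.0627 to 0.112 without DMSO siNT 2-1V, 2-2V or 4-2VM or 4OHT siNT 2-3VM). It was not called in the VM or the number 4 libraries alone or with V or VM as a covariate. The full tag as a block (0.22, edgeR adjusted p 0.273) and number and digit as a block (0.45, edgeR adjusted p 0.0626) lost the call too.

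MICB (ENSG00000204516; chr6:31494881-31511124), its close relative, went the other way. It was at 17.1, 17.95, 25.3, 18.1 and 17.8 CPM in DMSO siNT, and at 10.4, 11.6 and 12.5 CPM as lowest, median and highest in 4OHT siNT. No libraries overlapped, and 59.7% of the transcript was left (log2 -0.74, SE 0.13, edgeR adjusted p 9.52e-05). No window of 110 bases was shared between MICA and MICB transcripts, or with other genes.

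Of the DNAM-1 ligands, PVR (CD155; ENSG00000073008; chr19:44643798-44666162), the one bound more strongly by DNAM-1, was at 141, 144, 159, 142 and 141 CPM in DMSO siNT and at 215, 236 and 253 CPM as lowest, median and highest in 4OHT siNT. Its libraries lay close together within each group and far apart between them, a 1.62-fold rise (log2 0.70, SE 0.07, edgeR adjusted p 7.33e-08). Of its windows 16.97% are shared with other genes, nearly all with ENSG00000279095, an unconfirmed gene model on the same strand.

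NECTIN2 (CD112; ENSG00000130202; chr19:44846175-44889223) was at 159, 158, 177, 151 and 174 CPM in DMSO siNT and at 148, 167 and 173 CPM as lowest, median and highest in 4OHT siNT. The groups covered the same range, with a log2 difference of -0.01 (95% interval -0.16 to 0.14, edgeR adjusted p 0.938). An increase or a decrease of the size seen for PVR lies outside that interval.

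NCR3LG1 (B7-H6; ENSG00000188211; chr11:17351800-17377341), the NKp30 ligand among the 10, was the scarcest of them per kb of exons. It was at 2.13 to 5.04 CPM in DMSO siNT and 4.20, 4.61 and 7.58 CPM as lowest, median and highest in 4OHT siNT. The groups overlapped and the difference did not pass (log2 0.40, edgeR adjusted p 0.0848), though it did without DMSO siNT 2-2V (0.50, edgeR adjusted p 0.0376). It also passed with V or VM as a covariate (0.55, edgeR adjusted p 0.0256), with the number as a covariate (0.43, edgeR adjusted p 0.0499) and with number and digit of the library names as a block (0.50, edgeR adjusted p 0.0390).

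ICAM1 (CD54; ENSG00000090339; chr19:10271093-10286615) changed by far more than the other 9. It was at 38.9, 22.5, 8.62, 14.9 and 8.74 CPM in DMSO siNT, and its lowest, median and highest 4OHT siNT libraries were at 359, 554 and 801 CPM. The rise was 29.4-fold (log2 4.88, SE 0.42, edgeR adjusted p 1.13e-08), from a control group whose own libraries differed widely. CD58 (LFA-3; ENSG00000116815; chr1:116514534-116571039, minus strand) was at 2.92, 3.24, 4.16, 2.85 and 3.59 CPM and rose to 4.50, 5.30 and 6.54 CPM as lowest, median and highest, a 1.62-fold change with no overlap (log2 0.69, SE 0.16, edgeR adjusted p 0.00128). In number 4 libraries alone CD58 was at 0.52 and did not pass (edgeR adjusted p 0.0817).

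**Figure D3:**
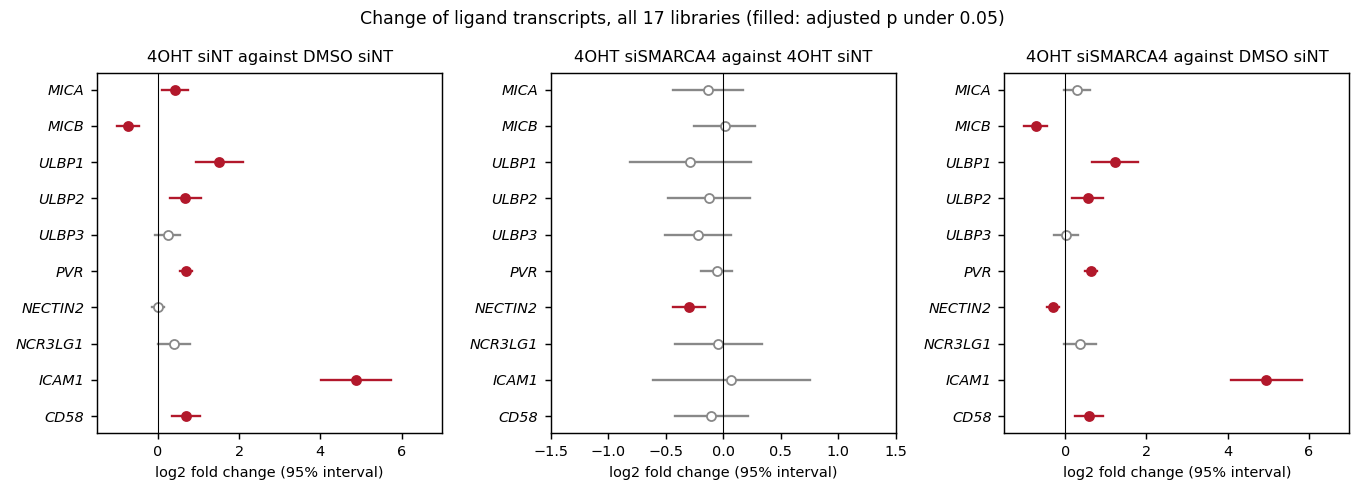
Log2 fold change of each ligand with its 95% interval in 3 comparisons over all 17 libraries, filled where the edgeR adjusted p is under 0.05. Of the 10 ligands, 7 are filled for 4OHT siNT against DMSO siNT, 1 (NECTIN2) for 4OHT siSMARCA4 against 4OHT siNT, and 7 for 4OHT siSMARCA4 against DMSO siNT; the comparisons share libraries.

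The comparison of 4OHT siSMARCA4 with 4OHT siNT asked whether SMARCA4 was needed for the ligand levels of senescent cells. Only NECTIN2 was called, lower, so that 1 of 10 ligands passed against 24.2% of all genes. Its libraries were also the sole ones among the ligands not to overlap between the groups, against 12.0% of all genes. The median log2 fold change was -0.11 for the ligands and -0.024 for all genes, and single ligands ran from -0.30 to 0.07.

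NECTIN2 had 122, 129 and 147 CPM as its lowest, median and highest siSMARCA4 libraries, below the 148 CPM of the lowest 4OHT siNT library. The knockdown left 81.4% of the transcript (log2 -0.30, SE 0.07, 95% interval -0.44 to -0.16, edgeR adjusted p 0.00404). It was called in each of 12 fits that left out a library of these groups. It was also the DNAM-1 ligand whose level had not passed the test between 4OHT siNT and DMSO siNT.

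PVR, the other DNAM-1 ligand, was at 209.8, 221 and 259 CPM as lowest, median and highest with siSMARCA4. Its interval was narrow, from -0.19 to 0.08 around a log2 difference of -0.06, and the groups overlapped. NCR3LG1, which binds NKp30, was at 4.09, 4.87 and 5.48 CPM and had a log2 difference of -0.04 (95% interval -0.42 to 0.33).

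The NKG2D ligands also overlapped between siSMARCA4 and siNT. MICA was at 96.0, 120.3 and 150.0 CPM as lowest, median and highest (log2 -0.13, 95% interval -0.44 to 0.17), and MICB at 8.56, 11.9 and 14.6 CPM (0.01, interval -0.25 to 0.28). ULBP1 spread from 7.59 to 22.04 CPM around a median of 11.2, wider than in any other group (-0.29, interval -0.81 to 0.24). ULBP2 was at 11.8, 16.7 and 19.5 CPM (-0.12, interval -0.48 to 0.23) and ULBP3 at 14.7, 16.3 and 20.3 CPM (-0.22, interval -0.51 to 0.07). These intervals leave room for falls of up to the size of the lower bounds, so that small changes were not detectable here.

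ICAM1 was at 389, 500.4 and 958 CPM as lowest, median and highest with siSMARCA4, a range that took in most of the 4OHT siNT libraries. Its log2 difference of 0.07 had an interval from -0.61 to 0.75, the widest of the 10. CD58 was at 3.87, 4.90 and 7.02 CPM (-0.10, interval -0.42 to 0.21).

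The siSMARCA4 libraries that end in V and those that end in VM differed in the ligands. For 7 of 10 the 3 V and 3 VM libraries of that group did not overlap, against 22.3% of all genes, with ULBP1, ULBP2, ULBP3, ICAM1 and CD58 higher in V and MICA and MICB lower. ICAM1 was at 574 to 958 CPM in V and 389 to 427 CPM in VM, and ULBP1 at 12.9 to 22.04 CPM in V and 7.59 to 9.50 CPM in VM. SMARCA4 was at 104 CPM in V and 71.9 CPM in VM on average.

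V or VM was also fitted as a covariate over all 17 libraries, and the test of its V against VM term was added after this was seen. That term called 2 ligands and 1.95% of all genes. ICAM1 was 2.26-fold higher in V (log2 1.18, edgeR adjusted p 0.0111), and MICA was at 0.704 of its VM level (log2 -0.51, edgeR adjusted p 0.0193). MICB (-0.39, adjusted p 0.0538) and ULBP1 (0.74, adjusted p 0.0806) did not pass. Because all 4OHT siNT libraries are VM, a difference of siSMARCA4 V libraries from 4OHT siNT is also a difference of V from VM, and tag and knockdown cannot be told apart there.

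Among VM libraries alone, 3 of siSMARCA4 against 6 of siNT, 2 ligands were called lower on knockdown, beside 26.9% of all genes. ULBP1 was the added one, with a log2 difference of -0.92 (SE 0.23, edgeR adjusted p 0.00908), and NECTIN2 was called again at -0.35 (edgeR adjusted p 0.00492). Libraries did not overlap for 4 ligands, with ULBP1, NECTIN2 and CD58 lower and MICB higher, against 32.9% of all genes. CD58 (-0.41, adjusted p 0.0651), ULBP2 (-0.34, adjusted p 0.0763), ICAM1 (-0.44, adjusted p 0.161) and MICB (0.27, adjusted p 0.0701) did not pass, and the ligand median was -0.34. With V or VM as a covariate over all libraries ULBP1 was likewise called (-0.74, edgeR adjusted p 0.0259), beside 27.4% of all genes. The full tag of the library names as a block called it too (-0.94, edgeR adjusted p 0.0209). No V tag of siSMARCA4 recurs in another group, so that this fit rests on the same 3 VM libraries and adds no separate evidence. With number and digit as a block ULBP1 was not called. In all it was called in 4 of 12 settings other than leaving out a library.

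**Figure D4:**
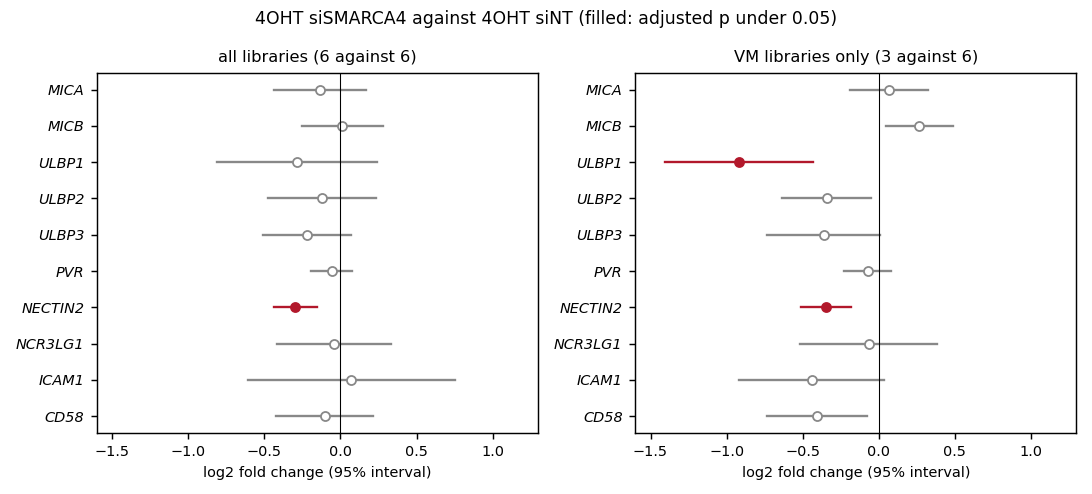
Log2 fold change of each ligand for 4OHT siSMARCA4 against 4OHT siNT with its 95% interval, over all libraries (6 against 6) and over VM libraries alone (3 against 6), filled where the edgeR adjusted p is under 0.05. ULBP1 is at -0.29 and not called on the left and at -0.92 and called on the right, and NECTIN2 is called in both.

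For 4OHT siNT against DMSO siNT within the VM libraries 7 ligands were called, beside 50.5% of all genes. MICA was no longer among them (log2 0.18, edgeR adjusted p 0.246), NCR3LG1 was (0.64, edgeR adjusted p 0.0235), and the fitted rise of ICAM1 was 5.65, as the V libraries of DMSO siNT held the 2 highest ICAM1 values of that group.

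The numbers 2 and 4 were compared next. In 4OHT siNT the 3 libraries of number 2 and the 3 of number 4 did not overlap for 6 ligands, against 36.7% of all genes, with MICA, ULBP1, ULBP3, PVR and CD58 higher in number 2 and ICAM1 lower. Within 4OHT siSMARCA4 that was so for 0 of 10 ligands, against 14.4% of all genes, and the difference between these counts was not tested. The edgeR test of number 2 against number 4 in that group called 0 ligands and 0.0344% of all genes. At an unadjusted p under 0.05 it gave 1 ligand, ULBP1, and 2071 genes, and DESeq2 also called 0 ligands.

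The difference between the numbers in the knockdown effect itself was tested by a term of group by number, added after these values were seen. It called ULBP3, whose change on knockdown was lower in number 2 than in number 4 by 0.84 on the log2 scale (95% interval -1.15 to -0.53, edgeR adjusted p 0.0163). ULBP3 was at 22.4 to 24.3 CPM in the number 2 libraries of 4OHT siNT and at 14.7 to 16.6 CPM in those of 4OHT siSMARCA4, and at 14.97 to 16.5 and 16.1 to 20.3 CPM in the number 4 libraries. ULBP1 had a larger estimate that did not pass (-1.29, edgeR adjusted p 0.0814).

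That term called 1.06% of all genes. In number 2 libraries alone, where 22.9% of all genes were called, the knockdown changed ULBP1 by -0.93 (edgeR adjusted p 0.00579) and ULBP3 by -0.58 (edgeR adjusted p 0.000765), whereas in number 4 libraries alone, with 6.02% of all genes called, the estimates were 0.35 and 0.26. NECTIN2 was called in the first and not in the second (-0.20, edgeR adjusted p 0.329).

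When the siSMARCA4 libraries of each number were instead set against all 6 of 4OHT siNT, ULBP1 and ULBP3 passed for neither number. For number 2, where 20.9% of all genes were called, ULBP1 was at -0.73 (edgeR adjusted p 0.0645) and ULBP3 at -0.34 (edgeR adjusted p 0.158). For number 4, with 9.87% of all genes called, ULBP1 was at 0.06 and ULBP3 at -0.09. NECTIN2 was called for both, at -0.28 (edgeR adjusted p 0.0294) for number 2 and at -0.29 (edgeR adjusted p 0.0452) for number 4. Number and tag overlap in part, since 2 of 3 number 2 libraries of siSMARCA4 are VM and 2 of 3 number 4 libraries are V. With V or VM as a covariate, number 2 against number 4 within siSMARCA4 was at -0.56 for ULBP1 (edgeR adjusted p 0.599) and -0.17 for ULBP3 (edgeR adjusted p 0.878), where it was -0.79 and -0.24 without the covariate, and none of these passed. The ULBP3 values of 4OHT siNT for both numbers are of VM libraries throughout.

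Set against DMSO siNT, 4OHT siSMARCA4 cells had 7 ligands called, 5 higher and 2 lower, beside 55.1% of all genes (26.5% higher and 28.6% lower), and 4 ligands without overlap, beside 36.3%. This comparison shares its libraries with the others and changes treatment and siRNA together. ICAM1 (log2 4.95), ULBP1 (1.23), PVR (0.64), CD58 (0.59) and ULBP2 (0.55, edgeR adjusted p 0.0139) were higher, MICB (-0.73) and NECTIN2 (-0.31) were lower, and MICA (0.29), NCR3LG1 (0.36) and ULBP3 (0.02) did not pass. The ligand median was 0.45. NECTIN2 was not called within V libraries (-0.20, edgeR adjusted p 0.273) or number 4 libraries (-0.30, edgeR adjusted p 0.0933). CD58 was not called within VM libraries (0.19, edgeR adjusted p 0.423), within number 2 libraries (0.39, edgeR adjusted p 0.0944) or with the full tag as a block (0.26, edgeR adjusted p 0.416). ULBP2 was not called within VM libraries (0.04, edgeR adjusted p 0.882), within number 2 libraries (0.52, edgeR adjusted p 0.115), with that block (0.21, edgeR adjusted p 0.479) or without DMSO siNT 2-2V (0.45, edgeR adjusted p 0.0545). ULBP1 was lost with that block as well (0.79, edgeR adjusted p 0.0508). No V tag is shared between libraries, so that the block takes the V libraries out of this comparison. NCR3LG1 was called within number 4 libraries (0.78, edgeR adjusted p 0.0222) and with number and digit as a block (0.52, edgeR adjusted p 0.0429), and ULBP3 was called, lower, within number 2 libraries (-0.25, edgeR adjusted p 0.0155). MICA was called with V or VM as a covariate (0.36, edgeR adjusted p 0.00568), within V libraries (0.48, edgeR adjusted p 0.0246), within number 2 libraries (0.48, edgeR adjusted p 0.0367) and without DMSO siNT 4-3VM (0.39, edgeR adjusted p 0.0392).

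It is also the comparison that can be made within V as well as within VM libraries. Within VM, 5 ligands were called, beside 45.4% of all genes. The fit within V libraries alone, 3 of siSMARCA4 and 2 of DMSO siNT, had not been planned. ULBP2 differed most between the tags, at a log2 fold change of 1.28 within V and 0.04 within VM, and the difference of 1.24 passed in a term of group by tag (SE 0.23, 95% interval 0.76 to 1.72, edgeR adjusted p 0.0175), as did 1.27% of all genes. ULBP2 was at 6.69 and 8.20 CPM in the DMSO siNT V libraries and 16.96 to 19.5 CPM in those of siSMARCA4, but at 10.4 to 14.5 and 11.8 to 16.4 CPM in the VM libraries. CD58 (0.97 within V and 0.19 within VM, difference 0.77, edgeR adjusted p 0.183) and ULBP1 (difference 0.82, edgeR adjusted p 0.428) did not pass.

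Other genes through which NK cells read, hold, kill or are held off by a target were taken from panels written with earlier results of these data known. For 4OHT siNT against DMSO siNT each panel's counts stand beside 27.0% of all genes called higher and 27.4% lower, and no panel was tested as a set. The first panel had 1 of 2 further NKG2D ligands called, lower, with RAET1L not tested. RAET1G fell by 1.10 on the log2 scale (edgeR adjusted p 0.000112), from 2.64 ± 0.669 CPM (SD, n = 5) to 1.23 ± 0.314 (n = 6). Like MICB, it fell while ULBP1 and ULBP2 rose.

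Of 4 nectins and related ligands, 2 were called higher and 1 lower in that comparison. NECTIN4 rose from 0.109 to 0.653 CPM (log2 2.54, edgeR adjusted p 0.000123) and NECTIN1 from 13.2 to 17.7 CPM (0.42, adjusted p 0.000181), while NECTIN3 fell from 122.8 to 54.8 CPM (-1.17, adjusted p 1.11e-07). NECTIN3, a partner of NECTIN2 and PVR at cell contacts, thus fell where NECTIN2 did not pass the test and PVR rose.

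A panel of 15 ligands of other receptors, written as activating or costimulatory, had 8 tested, with 6 higher and 1 lower beside 54.4% of all genes called (CLEC2A, CD48, SLAMF6, SLAMF7, CD70, CD80 and CD86 were not tested). It holds CLEC2D, whose receptor NKR-P1A inhibits human NK cells, and NID1, reported to restrain NKp44, and without this pair 4 of 6 were higher and 1 lower. ICOSLG, the ligand of ICOS, rose from 0.539 to 6.49 CPM (log2 3.58, edgeR adjusted p 7.15e-10). CLEC2D, the inhibitory one, rose by 1.48 and TNFSF9, the CD137 ligand, by 1.38 on the log2 scale, and PDGFD, a ligand of NKp44, fell from 8.32 to 1.46 CPM (-2.51). Of the 8 other integrin and CD2 ligands, 4 were higher and 1 lower. ICAM2 (log2 2.01, from 0.0650 to 0.267 CPM) and ICAM4 (1.52, from 1.12 to 3.21 CPM) rose with ICAM1 but from far lower levels, and VCAM1, which binds another integrin, fell from 8.94 ± 8.90 to 1.20 ± 0.294 CPM (-2.90). VCAM1 was also called higher in V than in VM libraries (log2 1.57, edgeR adjusted p 0.0238), and TNFSF9 lower (-0.64, edgeR adjusted p 0.0487). 4OHT siNT has VM libraries only. The part of the tag in the fall of VCAM1 and the rise of TNFSF9 was not tested.

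Of 12 inhibitory ligands tested, 1 was higher and 8 were lower, beside 27.0% and 27.4% of all genes (CEACAM1, CDH1 and CD200 were not tested). The 8 include COL1A1 and COL3A1, which are also fibroblast markers, a list of which all 9 were lower, and PCNA, a replication protein. COL1A1 (log2 -0.78, edgeR adjusted p 0.00132), COL3A1 (-0.80, adjusted p 0.00451) and PCNA (-0.64, adjusted p 0.0002) were named after their values were seen. CD276 rose from 163 to 274 CPM (log2 0.75, edgeR adjusted p 1.73e-08). PDCD1LG2 (PD-L2) fell from 28.3 to 7.76 CPM (-1.87), CDH2 from 66.2 to 30.2 CPM (-1.13) and CD47, the signal that holds off phagocytes, from 171 to 80.2 CPM (-1.09).

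The panel of death receptors and ligands had 6 of 10 higher and 1 lower, beside 54.4% of all genes called in either direction. It also holds CFLAR and SERPINB9, which are neither receptors nor ligands. CFLAR was among the 6 (log2 0.38, edgeR adjusted p 0.00241), and SERPINB9 was the 1 that was lower. The decoy receptor TNFRSF10D rose from 272 to 785 CPM (log2 1.53) and the TRAIL receptor TNFRSF10A from 5.66 to 13.6 CPM (1.27), whereas SERPINB9, which blocks granzyme B, fell from 2.73 to 1.36 CPM (-1.01). FASLG rose on few counts, from 8 over the DMSO siNT group to 80 over 4OHT siNT (3.11). A panel of 10 sheddases, which can cut ligands such as MICA from the surface, and their inhibitors had 3 higher and 4 lower. It also holds PDIA6, a protein disulfide isomerase, which did not pass (edgeR adjusted p 0.0909). MMP14 rose from 791 to 2581 CPM (1.71), TIMP1 from 1034 to 4894 CPM (2.24) and MMP9 from 4 to 238 counts over the groups (5.55). MMP9 was also called higher in V than in VM libraries (2.29, edgeR adjusted p 0.0280), and the part of the tag in its rise was not tested. ADAM9 fell by 0.74, TIMP2 by 0.62 and TIMP3 by 0.84 on the log2 scale.

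Of 20 genes reported to regulate NKG2D ligand transcription, 8 were higher and 5 lower, a share called close to the 54.4% of all genes. IRF1 (log2 1.09), NFKB1 (0.97), an NF-kB subunit, and MYC (0.63) rose. E2F2 fell from 251 to 9 counts over the groups (-4.83), and E2F1 (-1.05) and the checkpoint kinase CHEK1 (-0.96) fell too.

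**Figure D5:**
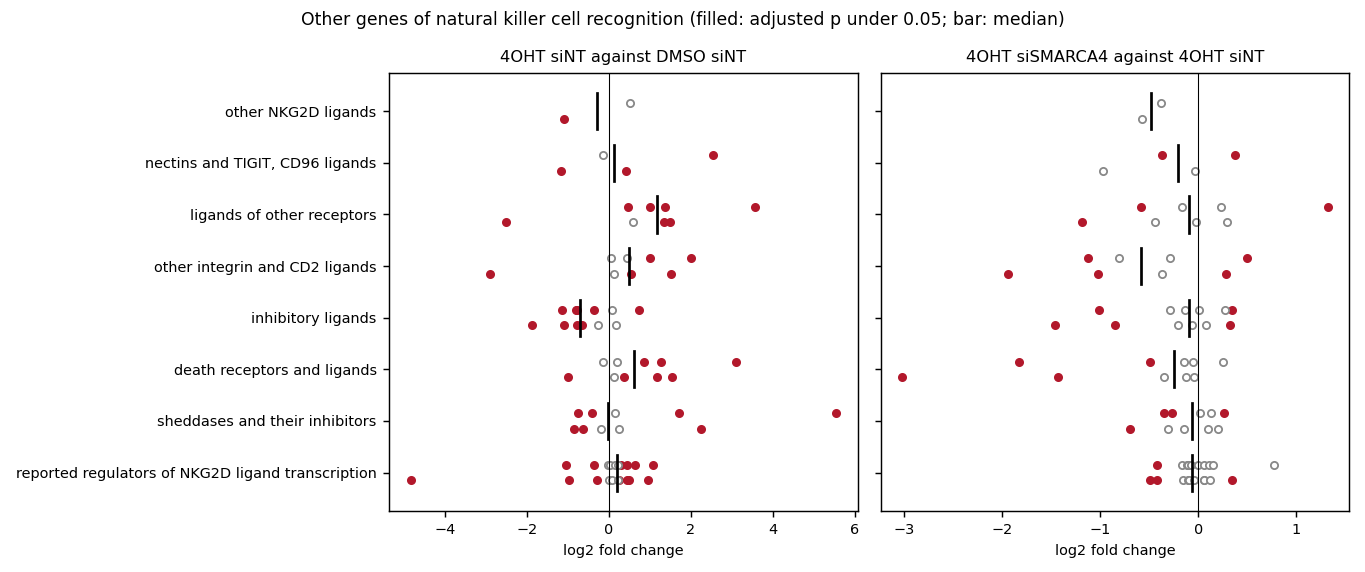
Log2 fold change of each tested gene of 8 panels around NK cell recognition, for 4OHT siNT against DMSO siNT and for 4OHT siSMARCA4 against 4OHT siNT, filled where the edgeR adjusted p is under 0.05, with a bar at the panel median. In the first, 8 of 12 inhibitory ligands are called lower, beside 27.4% of all genes. In the second, 4 of 10 genes of the panel of death receptors and ligands are called lower, beside 13.8%.

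On knockdown 10.4% of all genes were called higher and 13.8% lower. The further NKG2D ligands RAET1G (log2 -0.38, edgeR adjusted p 0.172) and RAET1E (-0.57, adjusted p 0.286) did not pass, nor did the NKG2D ligands among the 10. Of the nectins, 1 was higher and 1 lower, and NECTIN1 fell from 17.7 to 13.6 CPM (log2 -0.37, edgeR adjusted p 0.00164), close to the change of NECTIN2. The panel of other receptor ligands had 1 higher and 2 lower. TNFSF9 rose from 1.88 to 4.71 CPM (1.32, edgeR adjusted p 0.000179), ICOSLG fell from 6.49 to 2.86 CPM (-1.18, adjusted p 0.000502) and NID1, a basement membrane protein that is reported to restrain NKp44, from 154 to 103 CPM (-0.58).

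Among the 8 integrin and CD2 ligands 2 were higher and 3 lower on knockdown, with F11R (JAM-A), which LFA-1 also binds, lower at -1.94 on the log2 scale (from 1.34 to 0.346 CPM). The inhibitory panel had 2 higher and 3 lower. The 2 that rose, named after their values were seen, were HLA-E, the ligand of the inhibitory receptor NKG2A, at 0.34 on the log2 scale (edgeR adjusted p 0.0204), and LGALS3 (galectin 3) at 0.32 (edgeR adjusted p 0.0183), with libraries that overlapped between the groups. The 3 that fell were the collagens COL1A1 (-1.46) and COL3A1 (-1.01), which are also fibroblast markers and bind the receptor LAIR1, and the cadherin CDH2 (-0.84).

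In the panel of death receptors and ligands, 4 of 10 genes were called lower on knockdown, beside 13.8% of all genes. FASLG fell from 80 to 10 counts over the groups (log2 -3.01, edgeR adjusted p 0.00225) and the decoy receptor TNFRSF10C from 6.50 to 2.42 CPM (-1.42). In the sheddase panel ADAM9 was higher (0.26), and the 3 lower were TIMP3 (-0.70), TIMP2 (-0.34) and the disulfide isomerase PDIA6 (-0.27). Of the 20 regulators 1 was higher and 3 lower, with MYC at -0.49 and CHEK1 at -0.42. In VM libraries alone 26.9% of all genes were called. There the nectins had 0 higher and 2 lower, and the integrin and CD2 ligands 1 and 3. The death receptor panel had 0 and 6 and the inhibitory panel 2 and 4, with CD274 among the 4 (-1.11, edgeR adjusted p 0.000415). The sheddase panel had 0 and 4, and ADAM9 did not pass (0.28, edgeR adjusted p 0.0876). The other receptor ligands and the regulators kept their counts.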

How the data were processed

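Poly(A) RNA of 17 libraries was sequenced strand by strand in paired ends. The authors trimmed reads with Cutadapt 4.7, aligned them to GRCh38 with HISAT2 2.2.1, keeping up to 100 alignments a pair, and counted genes and repeat loci with TElocal, which shares a pair that maps to several places among them. The deposited values are expected counts, written as whole numbers and not normalised. The gene identifiers of the tables hold all 62700 of GENCODE 44 and 54 others, and gene positions here are of GENCODE 44 on GRCh38. The paper's methods name an Ensembl release for genes, not GENCODE 44. Which annotation was used for counting could not be told.

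From these expected counts, taken as whole numbers, genes and repeat subfamilies were joined in a single table and filtered by edgeR's filterByExpr at a minimum count of 10 and a minimum total of 15, and 19473 genes passed. TMM scaling and edgeR 4.0.16 (R 4.3.3) quasi-likelihood tests over 3 group means were used, with Benjamini-Hochberg adjustment over all genes tested and a call at an adjusted p under 0.05. CPM are counts per 1e6 of the TMM-scaled library size, and errors are SD unless SE is written. Fits with the siSMARCA4 group split by number, with a term for V or VM, and in VM libraries alone followed the same steps. DESeq2 1.42.0 was run as an alternative, as the authors had tested genes with DESeq2. Library totals of 39.1 to 68.98 M counts gave each ligand at least 127 counts in every library. The scripts were tested on simulated data. Libraries were grouped by their labels, and no library was a duplicate of another.

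The members and lists were chosen with earlier results of these data known. All 10 ligands are named. Panel genes are named where they were called and their libraries did not overlap, at most 3 in each direction per panel and comparison, besides SMARCA4 and panel genes that were not tested. RAET1E and RAET1G on knockdown, and COL1A1, COL3A1, PCNA and CFLAR between 4OHT siNT and DMSO siNT, and HLA-E, LGALS3, CD274 and PDIA6, were named after their values were seen. So were the inhibitory ligands named between 4OHT siSMARCA4 and DMSO siNT. Promoter sequences were from RefSeq (GRCh38.p14) and shared windows were counted among GENCODE 44 transcripts. Python 3.11.15 was used for the remainder. Repeat loci were not analysed here beyond the joint fit.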

Additional observations from a re-analysis of the deposited data

Results flagged for a closer look

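MICB, PVR and NCR3LG1 each had a library that stood far from the others of its group on the log2 scale, the gap being over Dixon's 95% limit in 3 of 33 gene and group pairs tested, where chance alone flags about 1 in 20. MICB was at 25.3 CPM in DMSO siNT 2-2VM, with the next library at 18.1 CPM, and without that library its fall from DMSO siNT to 4OHT siNT was -0.66 on the log2 scale (edgeR adjusted p 0.000265). PVR was at 159 CPM in the same library, with the next at 144 CPM, and its rise without it was 0.70. NCR3LG1 was at 7.58 CPM in 4OHT siNT 2-1VM, with the next at 4.87 CPM, and its difference between 4OHT siNT and DMSO siNT without it was 0.24 (edgeR adjusted p 0.252).

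The effect on ULBP2 of 4OHT siSMARCA4 against DMSO siNT differed between V and VM libraries by 1.24 on the log2 scale (edgeR adjusted p 0.0175). The effect on ULBP3 of 4OHT siSMARCA4 against 4OHT siNT differed between number 2 and number 4 libraries by -0.84 (edgeR adjusted p 0.0163). Both terms were added after the data were seen, and what tag and number stand for was not tested.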

How the results depend on the processing

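The 3 comparisons between groups were repeated with DESeq2, relative log expression size factors, no filter, genes alone, the 2 groups compared, V or VM or the number as a covariate, VM, number 2 or number 4 libraries alone, replicate blocks, and without each library in turn. For 4OHT siSMARCA4 against DMSO siNT a fit in V libraries alone, which had not been planned, was added. Number 2 against number 4 was repeated with 7 of the planned settings, not with the 2 groups alone, a number alone or a block, and without each siSMARCA4 library. Sums over identifiers that share a symbol were not run, since each ligand has 1. For 4OHT siSMARCA4 against 4OHT siNT, ligands called were 2 with V or VM as a covariate beside 27.4% of all genes, 2 in VM libraries beside 26.9%, 3 in number 2 libraries beside 22.9% and, by edgeR, 0 in number 4 libraries (0 also at an unadjusted p under 0.05), where 1198 genes, 6.02%, were called. The ligand median was -0.34 in VM libraries, -0.28 in number 2 libraries and, with its sign turned, 0.13 in number 4 libraries. For 4OHT siNT against DMSO siNT the ligand median was 0.69 in number 2 libraries, and 4 ligands were called in number 4 libraries, beside 43.0% of all genes. For 4OHT siSMARCA4 against DMSO siNT the median was 0.22 in VM libraries and 0.62 in number 4 libraries, and ULBP3 turned sign, to -0.25 in number 2 libraries (edgeR adjusted p 0.0155). For number 2 against number 4 within siSMARCA4, genes called were 231 with DESeq2, 69 without a filter, 16 with V or VM as a covariate and, by edgeR, 0 in VM libraries (858 at an unadjusted p under 0.05). With the number as a covariate 18 genes were called and the ligand median was -0.37, but that fit takes off the number difference of the siNT groups and is no repeat of the comparison.

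Leaving out each library gave 3717 to 5250 genes, 1 to 1 ligands and a median of -0.14 to -0.048 for 4OHT siSMARCA4 against 4OHT siNT. It gave 9980 to 10638 genes, 6 to 7 ligands and 0.48 to 0.60 for 4OHT siNT against DMSO siNT, and 10036 to 11050 genes, 6 to 8 ligands and 0.40 to 0.51 for 4OHT siSMARCA4 against DMSO siNT. For number 2 against number 4 it gave 1 to 579 genes, 579 of them without 4-2VM and 54 without 2-3V, with 0 to 0 ligands and -0.26 to -0.13. NECTIN2 was called on knockdown in 12 of 12 of these fits and in 11 of 12 other settings. MICA was called for 4OHT siNT against DMSO siNT in 7 of 12 other settings (edgeR or DESeq2 adjusted p 0.0081 to 0.925).

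The replicate block of the full tag gave 3043 genes, 2 ligands and a median of -0.32 for 4OHT siSMARCA4 against 4OHT siNT, and 6330 genes, 4 ligands and 0.27 for 4OHT siSMARCA4 against DMSO siNT. The replicate block of number and digit gave 2882 genes for the first. Whether the tags pair the libraries could not be decided. Deviations from the group means of libraries with the same tag correlated at 0.106, 0.329 and -0.141 between siSMARCA4 and siNT. They were not set beside libraries with unlike tags, and the siSMARCA4 mean was taken over V and VM libraries together. The cause of these changes was not tested.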

Other observations

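Against DMSO siNT, the 4OHT siSMARCA4 cells had 7 of 8 ligands of other receptors higher and 1 lower by edgeR (median log2 fold change 0.87), a panel that holds CLEC2D and NID1, whose receptors or effects on NK cells are inhibitory, and 2 of 12 inhibitory ligands higher and 7 lower (median -0.81), beside 26.5% of all genes called higher and 28.6% lower. The 7 inhibitory ligands that were lower include the fibroblast markers COL1A1 (log2 -2.23) and COL3A1 (-1.81) and the replication protein PCNA (-0.64). The 2 that were higher were CD276 (0.82) and HLA-E (0.42), the ligand of the inhibitory receptor NKG2A. The panel of death receptors and ligands, which also holds CFLAR and SERPINB9, had 4 higher and 4 lower of 10 (median 0.05). In 4OHT siNT it had 6 higher and 1 lower, and the difference between these counts was not tested. All 10 genes of the panel of sheddases and inhibitors were called, 5 in each direction, beside 55.1% of all genes. The 5 that were lower include PDIA6, a protein disulfide isomerase (-0.45). No panel was tested as a set. RAET1G, an NKG2D ligand of the ULBP family, was lower by 1.48 on the log2 scale (edgeR adjusted p 4.09e-06). These comparisons share the DMSO siNT libraries with those of the report.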
